A study of Oryza sativa with 8 samples.

Results

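Photosynthetic electron transfer between the cytochrome b6f complex and NADP runs through a series of proteins, part of them encoded in the nucleus. The Rieske iron-sulfur protein is the subunit of cytochrome b6f that takes electrons from plastoquinol, and plastocyanin, a copper protein of the thylakoid lumen, carries them on to photosystem I. On the stromal side ferredoxin, an iron-sulfur protein, accepts electrons from photosystem I, and ferredoxin-NADP reductase (FNR) uses them to make the NADPH that the Calvin-Benson cycle spends. Ferredoxin also serves the plastid enzymes that reduce nitrite and sulfite and make glutamate, and the cyclic route of electrons back to plastoquinone.

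These steps were followed through 5 rice loci chosen by identifier, namely the Rieske subunit Os07g0556200 (gene PetC), plastocyanin Os06g0101600, ferredoxin 1 Os08g0104600 and the leaf FNR loci Os06g0107700 and Os02g0103800. By their identifiers they lie on chromosomes 7, 6, 8, 6 and 2. All 5 were found among the 36850 rows of the count table, and all 5 passed the filter on low counts, which left 20690 tested genes. The names come with the identifiers. The table pairs no identifier with a name, and the RefSeq gene table used here holds none of the 5 identifiers.

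The leaves came from rice (Oryza sativa) grown in a field and were taken at 10:00 a.m. at the heading stage, from the second leaf counted from the top. The line mEmBP-OE-4 overexpresses mEmBP-1a, a bZIP transcription factor of maize, a class of regulator known to bind ACGT-containing DNA such as the G-box, and was compared with the wild type (WT), with 4 libraries in each group. It is 1 transgenic line, and the promoter that drives the transgene is not given in the sources used here. The labels give no age and no further treatment for either group, and nothing in them tells if a replicate is a plant of its own. Therefore p-values here weigh the group difference only against the spread among these libraries, and that spread may be technical in part.

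Libraries held 35627524 to 50800180 counts. Levels are given as counts per 1000000 (CPM) on library sizes scaled by the trimmed mean of M-values (TMM), whose factors were 0.741 to 1.01 in mEmBP-OE-4 and 1.11 to 1.28 in WT. Without those factors the median log2 fold change of all tested genes was -0.47 in place of 0.00, so each change below is also given on library totals alone where the call or the size depends on it. Of 3 loci recalled from memory as markers of green mesophyll, 2 rose and 1 did not pass. Their summed levels were 43021 to 74608 CPM in mEmBP-OE-4 and 38190 to 47790 CPM in WT, mostly from the locus that did not pass, at 52679 ± 11245 CPM in mEmBP-OE-4 and 42774 ± 3899 CPM in WT (SD, n = 4, log2 fold change 0.30). The other two had log2 fold changes of 2.59 and 2.63, more than any of the carriers below. Of 5 panicle and flower loci, 1 was tested and did not pass, 1 had no count, and the summed level was 1.55 to 3.33 CPM in mEmBP-OE-4 and 2.36 to 3.59 CPM in WT. Of 3 secondary wall loci, markers of veins and fibres, 1 passed the filter and was higher, and the summed level was 2.10 to 8.05 CPM in mEmBP-OE-4 and 0.0423 to 0.127 CPM in WT. The part of tissue make-up, green cells included, in the carrier results was not tested.

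The line had more carrier transcript than WT, by 2.02-fold for Rieske, 2.71-fold for plastocyanin and 2.75-fold for ferredoxin 1. One of the FNR loci, Os02g0103800, rose 2.75-fold. The other, Os06g0107700, stood at 2.26-fold and lay just outside the threshold (edgeR adjusted p = 0.0502, from the quasi-likelihood F test over all tested genes). Thus 4 of 5 loci rose and none fell, against 20.1% of all tested genes higher and 19.1% lower. Rieske, plastocyanin and ferredoxin 1 are abundant, and of tested genes with a mean of at least 1000 CPM 66.1% rose and 1.74% fell. At 1 to 10 CPM, the class of the FNR loci, 16.6% rose and 23.1% fell. On library totals alone the call of Os02g0103800 was lost, and 8.47% of all tested genes rose and 43.1% fell. In a bulk leaf sample, a change in the number of cells of a type and a change in the RNA per cell cannot be told apart.

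**Figure D1:**
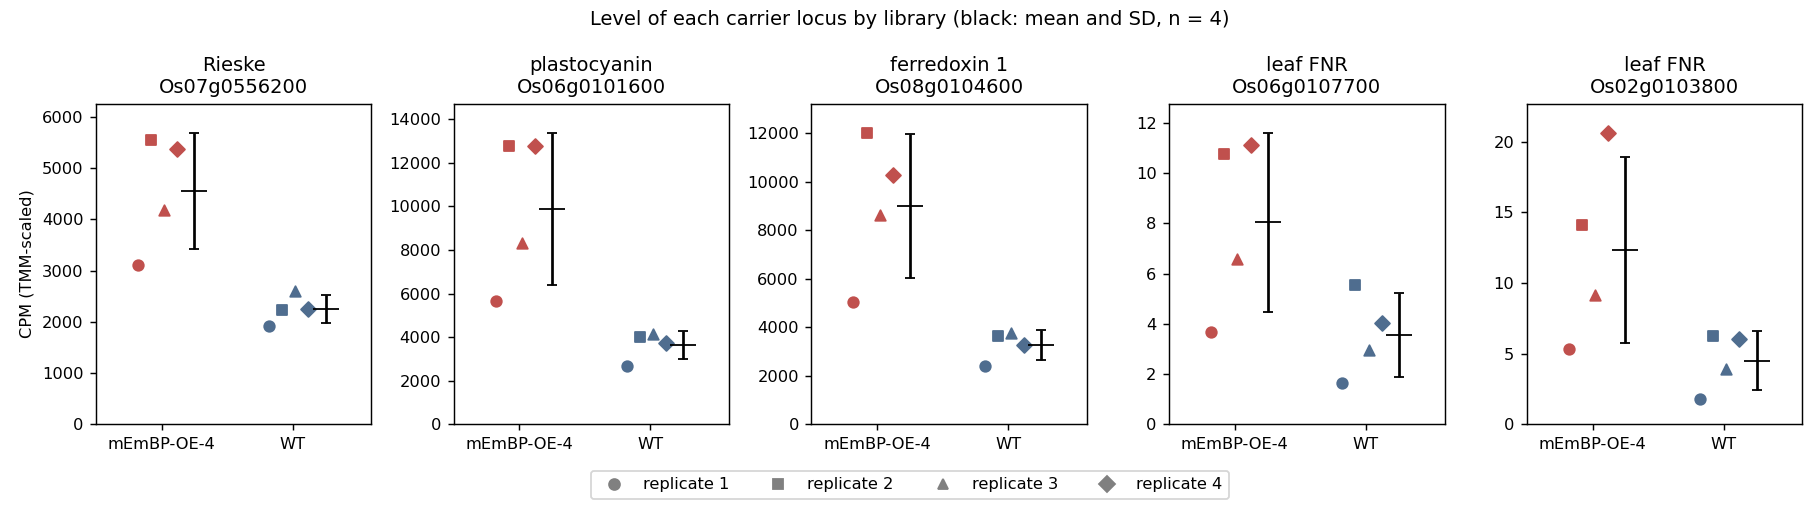
CPM (TMM-scaled, y axis from 0 in each panel) of the 5 carrier loci in each library, with mEmBP-OE-4 left of WT, 1 symbol per replicate number, and the mean with its SD in black (n = 4). The groups do not overlap for Rieske, plastocyanin and ferredoxin 1 and overlap for both FNR loci, and replicate 1 is the lowest library of its group in every panel.

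The Rieske locus, at the entry of the chain, had 3119, 5555, 4194 and 5366 CPM in mEmBP-OE-4 replicates 1 to 4, against 1926, 2240, 2612 and 2243 CPM in WT replicates 1 to 4. Every mEmBP-OE-4 library lay above every WT library. The means were 4559 ± 1133 CPM in mEmBP-OE-4 and 2255 ± 281 CPM in WT (SD, n = 4), and the log2 fold change of 1.02 had an SE of 0.21 and an edgeR adjusted p of 0.00474. In this fit Rieske had the smallest change of the 5 loci. On library totals alone it was 0.51, still called, with 3781 ± 454 CPM in mEmBP-OE-4 and 2651 ± 175 CPM in WT (SD, n = 4).

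Plastocyanin, the mobile carrier of the lumen, had 5671, 12743, 8335 and 12754 CPM in mEmBP-OE-4 and 2689, 4002, 4135 and 3727 CPM in WT. The groups did not overlap, and replicates 2 and 4 of mEmBP-OE-4 were the high libraries. The means were 9876 ± 3491 CPM in mEmBP-OE-4 and 3638 ± 655 CPM in WT (SD, n = 4). The log2 fold change of 1.44 had an SE of 0.29 and an edgeR adjusted p of 0.00386. On library totals alone it was 0.92 and still called. In mEmBP-OE-4 the plastocyanin locus took 0.574% to 0.979% of all counts in a library, and 0.344% to 0.469% in WT.

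Ferredoxin 1, the stromal acceptor of photosystem I electrons, had 5050, 12018, 8623 and 10297 CPM in mEmBP-OE-4 and 2413, 3634, 3758 and 3276 CPM in WT. Again no mEmBP-OE-4 library fell within the WT range, and the order of the libraries was much like that of plastocyanin. The means were 8997 ± 2974 CPM in mEmBP-OE-4 and 3270 ± 607 CPM in WT (SD, n = 4), and the log2 fold change of 1.46 had an SE of 0.28 and an edgeR adjusted p of 0.00319. On library totals alone it was 0.95 and still called. The groups did not overlap for these 3 of the 5 loci, all higher in mEmBP-OE-4, where the same held for 18.8% of all tested genes. That share is not matched for abundance. Of tested genes with a mean of at least 1000 CPM, as these 3 loci have, 66.1% were called higher. The share of that class without overlap is not given here, so nothing particular to the carriers is read from it.

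The 2 loci given as leaf FNR, the flavoenzymes at the end of the chain, were counted at a few CPM. Leaf FNR is known as an abundant chloroplast protein, and these levels do not mark the loci as strongly expressed leaf genes. By mean CPM, which is not divided by transcript length, Rieske, plastocyanin and ferredoxin 1 exceeded 99.8%, 99.9% and 99.9% of tested genes, while Os06g0107700 exceeded 45.7% and Os02g0103800 53.4%. Together the FNR loci had 350, 746, 641 and 1237 counts in mEmBP-OE-4 and 210, 558, 270 and 464 counts in WT. How reads were assigned to these loci is not given in the sources used here, and no source annotates the identifiers. Whether they are the leaf FNR genes of this annotation and how far read assignment bears on their low counts was not tested, and both limits hold for each FNR value and ratio below.

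Os02g0103800 had 5.36, 14.1, 9.18 and 20.6 CPM in mEmBP-OE-4, against 1.79, 6.24, 3.91 and 6.04 CPM in WT. The groups overlapped, since mEmBP-OE-4 replicate 1 lay below WT replicates 2 and 4. The means were 12.3 ± 6.59 CPM in mEmBP-OE-4 and 4.49 ± 2.09 CPM in WT (SD, n = 4), and the log2 fold change of 1.46 had an SE of 0.46 and an edgeR adjusted p of 0.0327. The call was lost without WT replicate 3 (adjusted p = 0.0818, edgeR), without mEmBP-OE-4 replicate 2 (adjusted p = 0.0787, edgeR) and without mEmBP-OE-4 replicate 4 (adjusted p = 0.0940, edgeR). It was also lost on library totals alone, where the log2 fold change was 0.93 (adjusted p = 0.0792, edgeR).

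Os06g0107700 had 3.66, 10.8, 6.60 and 11.1 CPM in mEmBP-OE-4 and 1.66, 5.56, 2.94 and 4.04 CPM in WT. Here too mEmBP-OE-4 replicate 1 lay inside the WT range. The means were 8.03 ± 3.56 CPM in mEmBP-OE-4 and 3.55 ± 1.66 CPM in WT (SD, n = 4), and the log2 fold change was 1.18 with an SE of 0.42. The edgeR adjusted p of 0.0502 did not pass. The locus was higher in mEmBP-OE-4 in 4 of 4 same-numbered pairs. With the replicate number as a block it was called (log2 fold change 1.18, edgeR adjusted p = 0.000445). The labels define no pairs, and the pairing was inferred from these same counts. The blocked call depends on it and does not replace the result of the fit without pairs. Os06g0107700 was also called without WT replicate 2 (adjusted p = 0.0313, edgeR) and without mEmBP-OE-4 replicate 1 (adjusted p = 0.0169, edgeR). On library totals alone the log2 fold change was 0.65 (adjusted p = 0.159, edgeR).

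The FNR loci varied more between libraries of 1 group than the abundant carriers did. The highest WT library had 3.36 times the CPM of the lowest for Os06g0107700 and 3.49 times for Os02g0103800, against 1.36 times for Rieske, 1.54 times for plastocyanin and 1.56 times for ferredoxin 1. In mEmBP-OE-4 these ratios were 3.03, 3.84, 1.78, 2.25 and 2.38 in the same order of loci. Counting error alone was smaller than this spread. The 101 counts of Os06g0107700 in WT replicate 1 had an exact Poisson 95% interval of 82.3 to 122.7 counts, while WT replicate 2 had 263 counts with an interval of 232 to 297, intervals that cover counting error only.

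Taken in same-numbered pairs, mEmBP-OE-4 over WT, the Rieske level was 1.62-, 2.48-, 1.61- and 2.39-fold in pairs 1 to 4. Plastocyanin was 2.11-, 3.18-, 2.02- and 3.42-fold, and ferredoxin 1 was 2.09-, 3.31-, 2.29- and 3.14-fold. For these 3 loci pairs 2 and 4 showed the larger folds. The TMM factors of mEmBP-OE-4 replicates 2 and 4, 0.741 and 0.768, were the lowest of the 8 libraries, and on library totals alone the log2 values of plastocyanin were 0.74, 1.01, 0.70 and 1.17, larger in the same pairs. Os06g0107700 was 2.21-, 1.94-, 2.24- and 2.75-fold and Os02g0103800 was 3.003-, 2.26-, 2.35- and 3.41-fold. All 5 loci were thus higher in mEmBP-OE-4 in each of the 4 pairs, and for both FNR loci pair 2 gave the smallest fold. The share of all tested genes higher in every pair was not counted. It is at least the 18.8% whose groups did not overlap and were higher in mEmBP-OE-4, so nothing particular to the carriers is read from it.

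**Figure D2:**
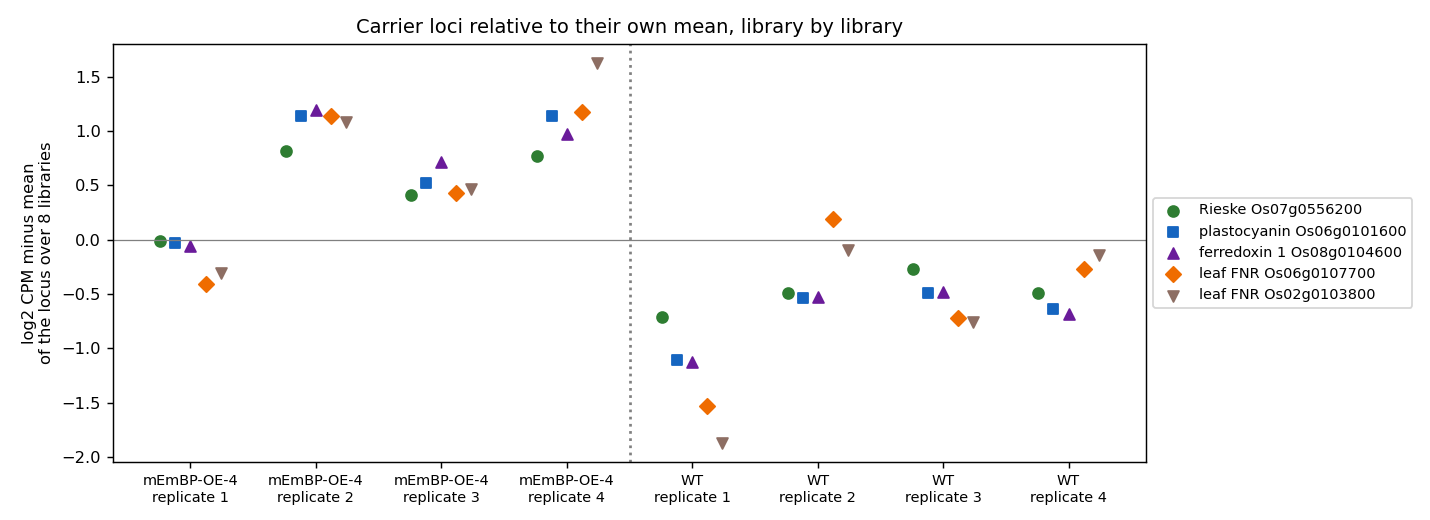
log2 CPM of each carrier locus minus its own mean over the 8 libraries (y axis), with mEmBP-OE-4 libraries left of WT libraries and 1 symbol per locus. Plastocyanin and ferredoxin 1 stay close together in each library, Rieske moves over a narrower range, and the FNR loci move over a wider one.

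These mean-centred log2 CPM profiles were compared between loci by their root mean square difference over the 8 libraries. The measure is a description that takes in the size of changes as well as their pattern. It needs no scaling factor beyond a small prior count. Plastocyanin and ferredoxin 1 differed by 0.0938, and plastocyanin was the nearest of 20689 genes to ferredoxin 1. Seen from plastocyanin, ferredoxin 1 ranked 2, behind Os03g0655100 at 0.0822. That locus, which no source used here annotates, had 28.2 ± 10.5 CPM in mEmBP-OE-4 and 11.2 ± 2.44 CPM in WT (SD, n = 4). Next to ferredoxin 1, after plastocyanin, stood the likewise unannotated Os03g0595300 at 0.113, with 333 ± 94.1 CPM in mEmBP-OE-4 and 124 ± 22.2 CPM in WT (SD, n = 4).

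Rieske was less close to plastocyanin than ferredoxin 1 was. It differed from plastocyanin by 0.245, and 603 of 20689 genes, 2.91%, lay nearer to Rieske than plastocyanin did. In the other direction Rieske ranked 134 from plastocyanin. The FNR loci differed from each other by a similar 0.230, where Os02g0103800 ranked 14 from Os06g0107700 and Os06g0107700 ranked 8 in the other direction. From Os06g0107700 the rank of plastocyanin was 119 and that of ferredoxin 1 was 156. Profiles over 8 libraries that share a group difference are alike in many genes, so these ranks describe the libraries and nothing else.

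Ratios of counts within a library compare neighbours in the chain without any scaling factor. Plastocyanin over Rieske was 1.82, 2.29, 1.99 and 2.38 in mEmBP-OE-4 and 1.40, 1.79, 1.58 and 1.66 in WT. No mEmBP-OE-4 ratio lay within the WT range. The means were 2.12 ± 0.261 in mEmBP-OE-4, against 1.61 ± 0.163 in WT (SD, n = 4), a log2 difference of 0.40. Groups that do not overlap give 4 of 4 higher pairs under any matching, so the pairs add nothing here. The two-sided exact permutation p was 0.0286, the smallest that 4 against 4 allows, and 0.114 after Benjamini-Hochberg adjustment over the 4 ratios examined, the lowest value that adjustment allows when only 1 ratio is at the smallest p.

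Ferredoxin 1 over plastocyanin was 0.891, 0.943, 1.03 and 0.807 in mEmBP-OE-4 and 0.897, 0.908, 0.909 and 0.879 in WT. The WT ratios lay within a narrow band that the mEmBP-OE-4 ratios spread around. The means were 0.919 ± 0.0952 in mEmBP-OE-4, against 0.898 ± 0.0139 in WT (SD, n = 4), and the exact permutation p was 0.686 (0.857 adjusted). The log2 difference was 0.03, and leaving out 1 library at a time gave -0.03 to 0.09.

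The summed FNR loci had 17.9, 20.7, 18.3 and 30.8 counts per 10000 counts of ferredoxin 1 in mEmBP-OE-4, and 14.3, 32.5, 18.2 and 30.8 in WT. The groups overlapped over nearly their whole range, with an exact permutation p of 0.857 (0.857 adjusted). The mean ratios were 0.00219 ± 6.06e-04 in mEmBP-OE-4, against 0.00239 ± 9.05e-04 in WT (SD, n = 4). By same-numbered pairs the ratio was higher in mEmBP-OE-4 in 3 of 4, with pairs 3 and 4 nearly equal. The log2 difference was -0.08 and lay between -0.30 and 0.10 when single libraries were left out, so its sign was not fixed.

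Between the FNR loci, Os06g0107700 over Os02g0103800 was 0.683, 0.764, 0.718 and 0.539 in mEmBP-OE-4 and 0.927, 0.892, 0.753 and 0.669 in WT. The ratio was lower in mEmBP-OE-4 in 4 of 4 pairs, yet the groups overlapped. The means were 0.676 ± 0.0973 in mEmBP-OE-4, against 0.810 ± 0.120 in WT (SD, n = 4), and the exact permutation p was 0.200 (0.400 adjusted). None of the 4 ratios passed the adjusted threshold, which 1 differing ratio among 4 could not reach with these group sizes.

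**Figure D3:**
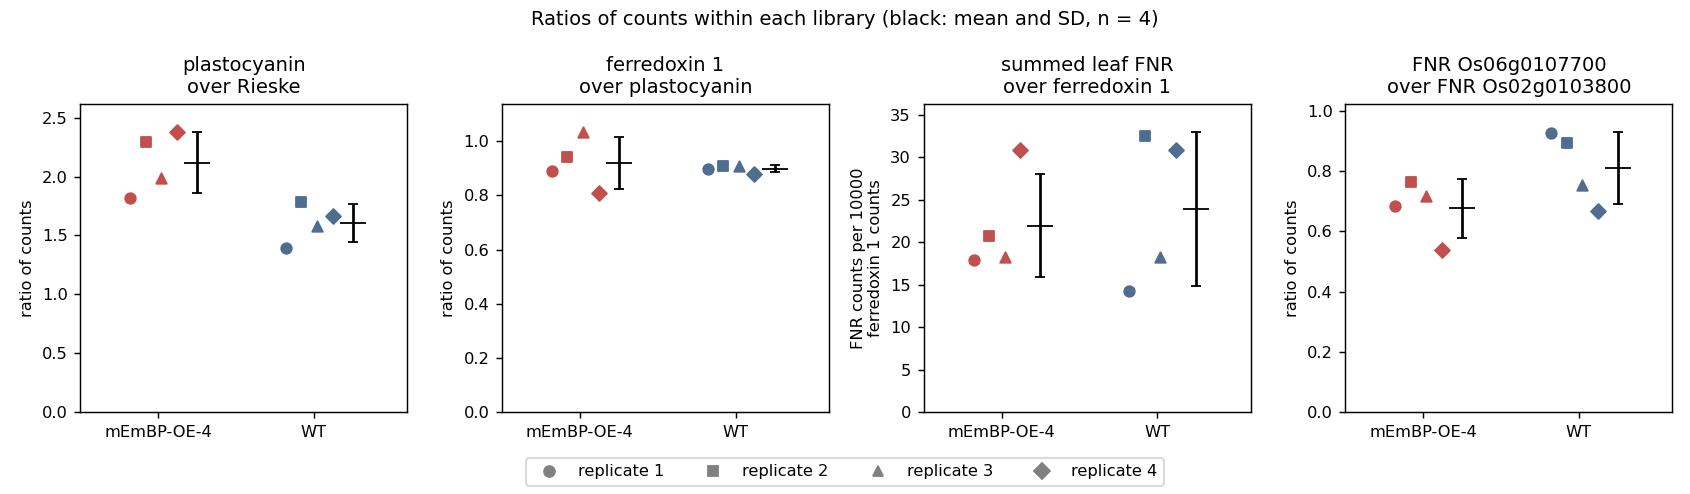
Ratios of counts within each library for neighbouring carriers (y axes from 0, the FNR panel in counts per 10000 ferredoxin 1 counts), mEmBP-OE-4 left of WT, with the mean and SD in black (n = 4). Plastocyanin over Rieske is the panel in which the groups do not overlap, at 1.82 to 2.38 in mEmBP-OE-4 and 1.40 to 1.79 in WT.

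By share of all counts, the 5 loci together took 1.40%, 2.25%, 1.88% and 2.18% in mEmBP-OE-4 and 0.901%, 1.16%, 1.16% and 1.08% in WT. The means were 1.93% ± 0.386 in mEmBP-OE-4, against 1.08% ± 0.123 in WT (SD, n = 4). Nearly all of this was Rieske, plastocyanin and ferredoxin 1, since the FNR loci took 9.14e-04% to 0.00244% in mEmBP-OE-4 and 4.41e-04% to 0.00138% in WT.

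Fold changes leaned upward among abundant genes in general, and the carriers were read against that. Of 115 tested genes with a mean of at least 1000 CPM, a class set after the data were seen, 66.1% rose and 1.74% fell, with a median log2 fold change of 0.78 (0.29 on library totals alone). Within this class the log2 fold change of Rieske, 1.02, exceeded that of 76 genes, that of plastocyanin, 1.44, exceeded 99 and that of ferredoxin 1, 1.46, exceeded 100. The 3 loci are members of the class themselves. A rise was thus common at their abundance, and their sizes lay above the median of the class, plastocyanin and ferredoxin 1 also above its upper quartile of 1.13.

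For the FNR loci the matching class was different. Of 8331 tested genes with a mean of 1 to 10 CPM, 16.6% rose and 23.1% fell, with a median log2 fold change of -0.11 (-0.58 on library totals alone). The log2 fold change of Os06g0107700, 1.18, exceeded 89.2% of that class, and that of Os02g0103800, 1.46, exceeded 92.1%. The 2 loci therefore stood in the upper part of their class.

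**Figure D4:**
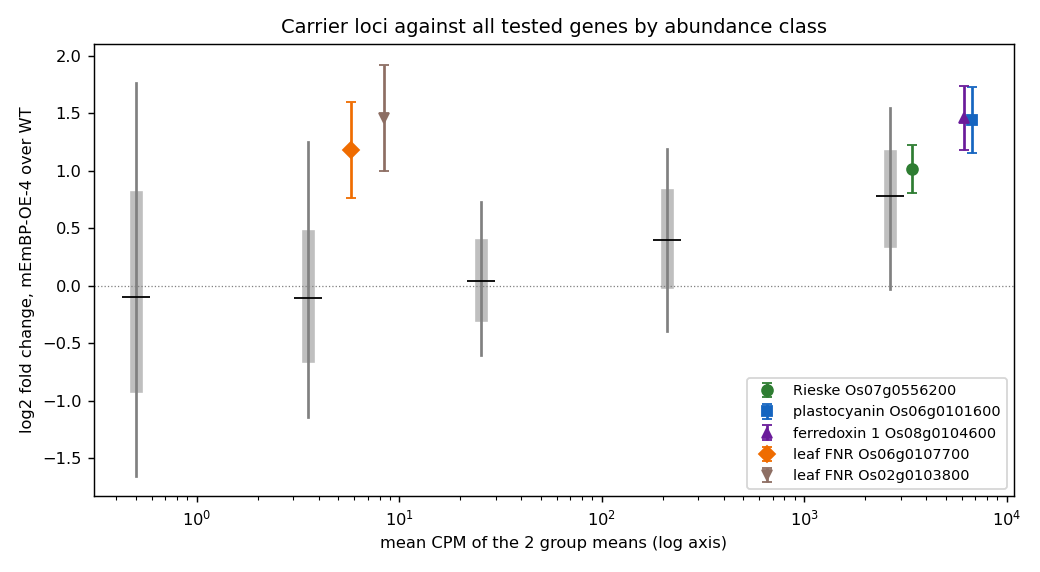
log2 fold change, mEmBP-OE-4 over WT, against mean CPM (log axis) for the 5 carrier loci with their SE, beside all tested genes in 5 abundance classes (black dash: median, thick bar: quartiles, thin line: 10% to 90%). The class medians are -0.10, -0.11, 0.04, 0.40 and 0.78 with increasing abundance, and each carrier lies above the median of its class.

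Further loci around these carriers were taken from a list of 17 identifiers recalled from memory. It was written for regulators of cyclic electron flow, nuclear subunits of the plastid ATP synthase, other ferredoxins and root FNR. It also covered enzymes that draw on ferredoxin, the plastid terminal oxidase and LIR1, a protein that binds FNR. No source used here annotates these identifiers, so they are counted and not named. Of the 17, 16 were tested, 12 rose and none fell, while 4 missed the threshold. The median log2 fold change was 0.84 against 0.00 for all tested genes, of which 20.1% rose. The list was also richer in abundant loci. Of its loci with a mean of at least 1000 CPM 3 of 3 rose, where 66.1% of such genes did, with 100 to 1000 CPM 5 of 6 rose against 46.1%, and below 100 CPM 4 of 7 rose against 18.3%. Mean levels ran from no count to 3574 CPM in mEmBP-OE-4 and from no count to 1742 CPM in WT. On library totals alone 6 of the 16 rose and 1 fell, where 8.47% of all tested genes rose and 43.1% fell, and the median was 0.35 against -0.47 for all tested genes.

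The 2 loci of that list written for root FNR, the form of non-green tissue, had summed levels of 20.3 to 41.6 CPM in mEmBP-OE-4 and 20.3 to 33.9 CPM in WT. One rose, at 13.4 ± 4.65 CPM in mEmBP-OE-4 and 6.19 ± 2.48 CPM in WT, and the other did not pass, at 19.2 ± 5.42 CPM in mEmBP-OE-4 and 20.0 ± 3.27 CPM in WT (SD, n = 4 each). On the same scale the 2 leaf FNR loci summed to 9.03 to 31.7 CPM in mEmBP-OE-4 and 3.44 to 11.8 CPM in WT. The counts are not divided by transcript length, so no order is read between the forms.

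**Figure D5:**
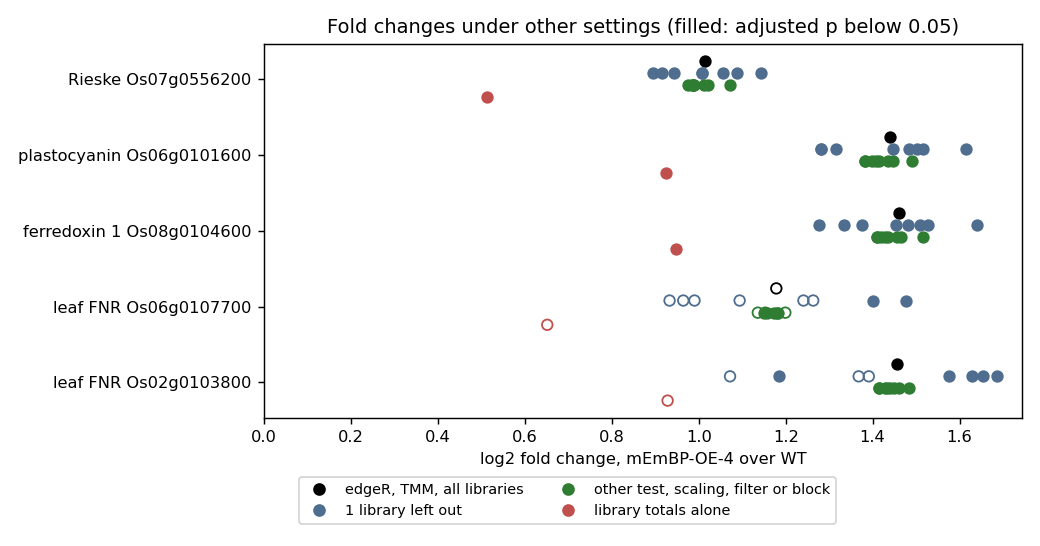
log2 fold change, mEmBP-OE-4 over WT (x axis from 0), of each carrier locus under every setting tried, filled where the adjusted p was below 0.05. Rieske, plastocyanin and ferredoxin 1 are called under all 18 settings, and the open symbols belong to the FNR loci.

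Across these settings the abundant carriers and the FNR loci differed in how often they were called, and not in direction. Rieske, plastocyanin and ferredoxin 1 were higher and called in each of the 17 alternatives to the fit above, with log2 fold changes of 0.51 to 1.14 for Rieske, 0.92 to 1.61 for plastocyanin and 0.95 to 1.64 for ferredoxin 1. Their lowest values came from library totals alone. Os02g0103800 was higher in all 17 and called in 13, with log2 fold changes of 0.93 to 1.69. Os06g0107700 was higher in all 17 and called in 7, with log2 fold changes of 0.65 to 1.48.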

How the data were processed

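Total RNA of 8 rice leaf samples was sequenced as paired-end reads, per the labels' protocols. The authors deposited 1 table of raw counts, with a row per gene and a column per library. Per the submitters' processing notes, the build was IRGSP-1.0 and the tools named, without roles, were STAR 2.5.3a, FastQC, Trim Galore and DESeq2. Which counter, strand setting and annotation release made the table is not given in the sources used here, so near-identical copies and overlapping or antisense genes carry an unknown error.

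Of 36850 rows, 7687 had no count in any library. The filter was filterByExpr (minimum count 10, minimum total 15) and the scaling TMM. The groups were compared without covariates by the quasi-likelihood F test of edgeR 4.0.16 (R 4.3.3), adjusted over 20690 genes after Benjamini and Hochberg, with a threshold of 0.05. The test was tried on simulated data. The SE of a log2 fold change is its size over the root of F. Profiles used log2 CPM with prior count 2. Ratios of counts were compared by two-sided exact permutation tests (scipy 1.17.1).

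The members and lists were chosen with earlier results of these data known, and the recalled identifiers rest on memory. The 5 members were named in full, other loci only where a source annotates them, and 1 nearest profile each for plastocyanin and ferredoxin 1. Replicates are numbered 1 to 4 in both groups, and the labels do not say what a number stands for. Same-numbered libraries had deviations from their group means that correlated at 0.641, 0.347, 0.189 and 0.104. Since all 4 lay above 0.1 the numbers were taken as pairs for the block and the values by pair alone. That is a reading from the data and not from the design. The fit reported and the permutation tests use no pairs, and the blocked value is printed where it changes a call. Another matching of the numbers gave a higher mean correlation, 0.347 against 0.320. Alternatives were DESeq2 1.42.0, voom in limma 3.58.1, other scaling factors and filters, the block and leaving out libraries. Depth was 35627524 to 50800180 counts per library, and the FNR loci rested on 101 to 804 counts each.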

Additional observations from a re-analysis of the deposited data

How the results depend on the processing

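Of 260 values under alternatives, 236 kept their direction and side of the threshold or moved little. On library totals alone 1752 genes were called higher and 8912 lower, the electron transport list had 6 higher and 1 lower with a median of 0.35, and Os02g0103800 fell short of the threshold at 0.93. This setting lacks the factors that differ between the groups. Requiring 5 CPM or more in 4 libraries gave 5220 calls, 2602 higher and 2618 lower, from fewer genes tested. Os06g0107700, just outside the threshold in the fit reported, passed with median-of-ratios factors (1.18), the 5 CPM filter (1.15), the replicate block (1.18), DESeq2 (1.17) and without both replicate 1 libraries (1.16), the last chosen after the data were seen. The cause was not tested.

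With single libraries left out, the log2 fold change ranged from 0.93 to 1.48 for Os06g0107700 and from 1.07 to 1.69 for Os02g0103800. The list's 12 higher loci became 8 to 11. The log2 ratio of summed FNR over ferredoxin 1 ranged from -0.30 to 0.10 and that of ferredoxin 1 over plastocyanin from -0.032 to 0.087, so both changed sign. The replicate block changed the call of no other carrier locus, and over all genes it gave 10200 calls against 8109. For the ratios the smallest two-sided exact p is 0.0571 with a library left out and 0.125 in pairs, so those settings could not pass. The FNR loci had 101 to 804 counts per library.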

Other observations

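The rows next to the FNR loci in identifier order were looked at for counts. The 4 nearest rows of Os06g0107700 had 0 to 20 counts in mEmBP-OE-4 libraries and 0 to 8 counts in WT libraries. The 4 nearest rows of Os02g0103800 had 0 to 806 counts in mEmBP-OE-4 and 0 to 648 counts in WT, and the row just before it had 510 to 806 counts in mEmBP-OE-4 and 358 to 648 counts in WT. Around the abundant carriers the 4 nearest rows differed. Those of Rieske had 0 to 1122 counts in mEmBP-OE-4 and 0 to 1143 counts in WT. Those of plastocyanin had 64 to 4809 counts in mEmBP-OE-4 and 34 to 822 counts in WT. Those of the ferredoxin locus Os08g0104600 had 6 to 3836 counts in mEmBP-OE-4 and 40 to 5001 counts in WT. Identifier order is not a map position, and rows farther away were not examined.

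One of the 3 loci recalled for enzymes that draw on ferredoxin averaged 0.209 ± 0.145 CPM in mEmBP-OE-4 and 0.325 ± 0.0954 CPM in WT, while the other 2 averaged 3359 ± 527 and 176 ± 44.0 CPM in mEmBP-OE-4 and 1742 ± 42.2 and 53.7 ± 15.5 CPM in WT (SD, n = 4). Those 2 rose, with log2 fold changes of 0.95 (SE 0.15) and 1.71 (SE 0.23), and the first did not pass at -0.63 (SE 0.51, edgeR adjusted p = 0.346). The loci recalled for 3 plastid ATP synthase subunits rose, by log2 fold changes of 0.59, 1.59 and 1.22, where 20.1% of all tested genes rose, as did 66.1% of those with at least 1000 CPM and 46.1% of those with 100 to 1000 CPM. With library totals in place of TMM the values were 0.10, 1.09 and 0.71, and the first was not called (edgeR adjusted p = 0.470).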
